A study of Mus musculus with 4 samples.

Results

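The genes described are the cadherins, protocadherins and claudins with a numbered name (Cdh, Pcdh or Cldn followed by digits) among the genes measured in 4 cultures of mouse fetal liver progenitor cells. They were chosen by symbol alone, from probe sets annotated to a single gene, and the probe set with the highest mean signal over the 4 arrays stood for each gene. This gave 52 genes of 18193, namely 21 cadherins, 11 protocadherins and 20 claudins, which together had 100 probe sets. RNA of each culture was read on 1 single-colour Affymetrix array, so there are 4 arrays in all and no replicate. The cultures carry the labels H-RasV12 (activated H-Ras), myr-Akt (AKT1 tied to the membrane by a myristoyl group), c-Myc (a transcription factor) and non-transformed. All 4 cultures, the non-transformed one included, lack p53 (p53-/-) and grew with 10% fetal bovine serum, dexamethasone, 20 ng/ml EGF and 50 ng/ml HGF. The labels do not say whether a transformed culture is a clone or a pool, which promoter drives the oncogene, or from how many animals the cells came. With 1 array a culture, no difference given here could be set against a spread between cultures, and there is no test.

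Classical cadherins are transmembrane proteins that bind the same cadherin on the neighbouring cell in the presence of calcium, and their tails hold beta-catenin and p120-catenin, which link the adherens junction to actin. Protocadherins share the extracellular repeats but not the catenin-binding tail, and many of those outside the large gene clusters fall into the delta-1 and delta-2 groups. Claudins form the strands of tight junctions, where some seal the space between epithelial cells and others form channels for ions. In liver, E-cadherin and N-cadherin join hepatocytes, and bile canaliculi are closed by tight junctions.

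Values are linear MAS5 signals in arbitrary units. A signal under 100, which is 20% of the trimmed mean common to all arrays, is called below the floor. Such signals have no order, and where just 1 of 2 arrays is below it the difference is a bound, given as at least N times. A gene is counted as higher or lower when it differs by 2-fold or more, a log2 difference of 1 or more in size. A signal depends on the probes as well as on the RNA, so signals are compared between arrays for 1 gene and not between genes. Over all genes, 9492 to 10216 were above the floor on an array, and the ratio of 5′ to 3′ signal of the beta-actin control, which falls when RNA is degraded, lay between 0.846 and 0.907. Myc gave a signal of 1747, 639.7 and 420.6 on the H-RasV12, myr-Akt and c-Myc arrays, against 2285 on the non-transformed array, so the label c-Myc is not borne out by this probe set. Akt1 gave 2760, 2834 and 2991 on the same arrays, against 1870 on the non-transformed array. It was not highest on the myr-Akt array, so that label is not borne out by its probe set either. No source used here says whether either probe set can read the introduced sequence. The c-Myc and myr-Akt arrays mean, throughout, the arrays so labelled, and every direction for them rests on these labels.

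Promoter sequences are shown for some of the claudins and for a protocadherin whose signals differed between the cultures, as context for members that the results turn on. They come from RefSeq for mouse assembly GRCm38.p6 and span 250 bases before to 50 bases after a gene's start. The table used held 18 promoters for 14 of the 21 members seen above the floor. The arrays measured RNA and no binding to these stretches. Capitals mark, on either strand, CACCTG (the E-box read by SNAI and ZEB repressors), CACGTG (the E-box read by MYC), TGANTCA (the AP-1 site) and GTTAAT (a core bound by HNF1 factors), and none of these overlap in the sequences shown.
Cldn6, chr17:23679115-23679414, plus strand: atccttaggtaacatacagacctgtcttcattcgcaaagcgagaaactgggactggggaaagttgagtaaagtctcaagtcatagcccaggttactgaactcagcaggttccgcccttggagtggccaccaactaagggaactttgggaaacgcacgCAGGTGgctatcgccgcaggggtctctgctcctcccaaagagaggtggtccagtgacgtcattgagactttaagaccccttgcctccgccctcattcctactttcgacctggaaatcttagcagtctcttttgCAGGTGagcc
Cldn3, chr5:134985964-134986263, plus strand: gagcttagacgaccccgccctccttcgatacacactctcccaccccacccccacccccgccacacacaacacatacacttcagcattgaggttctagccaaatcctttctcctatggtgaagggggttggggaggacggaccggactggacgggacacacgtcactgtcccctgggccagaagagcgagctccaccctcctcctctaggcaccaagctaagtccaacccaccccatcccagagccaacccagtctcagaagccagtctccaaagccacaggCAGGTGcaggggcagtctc
Cldn15, chr5:136967619-136967918, plus strand: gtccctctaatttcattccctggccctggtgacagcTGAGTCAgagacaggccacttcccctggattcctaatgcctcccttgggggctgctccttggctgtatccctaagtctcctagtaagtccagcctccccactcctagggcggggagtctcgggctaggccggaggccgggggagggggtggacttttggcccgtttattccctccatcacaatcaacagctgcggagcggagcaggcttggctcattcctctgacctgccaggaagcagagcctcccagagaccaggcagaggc
Cldn10, chr14:118787621-118787920, plus strand: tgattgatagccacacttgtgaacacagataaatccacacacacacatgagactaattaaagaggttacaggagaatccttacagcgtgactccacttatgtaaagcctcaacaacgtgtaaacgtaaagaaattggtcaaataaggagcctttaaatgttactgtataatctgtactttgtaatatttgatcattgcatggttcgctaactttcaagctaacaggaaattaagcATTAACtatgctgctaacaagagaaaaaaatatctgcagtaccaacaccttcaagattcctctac
Cldn10, chr14:118854700-118854999, plus strand: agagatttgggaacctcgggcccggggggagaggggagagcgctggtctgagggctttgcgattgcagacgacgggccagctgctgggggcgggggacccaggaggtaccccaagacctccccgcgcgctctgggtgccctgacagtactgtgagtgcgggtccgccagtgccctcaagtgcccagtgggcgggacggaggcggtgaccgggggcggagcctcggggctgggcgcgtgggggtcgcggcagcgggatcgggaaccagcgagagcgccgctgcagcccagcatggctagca
Pcdh17, chr14:84443313-84443612, plus strand: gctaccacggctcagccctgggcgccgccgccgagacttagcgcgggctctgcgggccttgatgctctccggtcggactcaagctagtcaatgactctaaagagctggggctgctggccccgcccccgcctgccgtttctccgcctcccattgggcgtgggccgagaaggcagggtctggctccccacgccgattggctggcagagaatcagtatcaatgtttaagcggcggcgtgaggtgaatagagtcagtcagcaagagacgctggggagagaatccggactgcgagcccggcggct

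Of these promoters, Cldn6 held CACCTG at 2 places and Cldn3 at 1, Cldn15 held the AP-1 letters, 1 of the 2 Cldn10 starts held the HNF1 letters, and the other Cldn10 start and Pcdh17 held none of the 4 motifs. Promoters of Cldn2, Cdh10, Pcdh9, Pcdh18 and Pcdh19, whose signals also differed, held none of the 4 motifs and are not shown. CACCTG stood in 3 of the 18 member promoters (16.7%), the third being that of Pcdh7, and in 20.2% of the 32851 promoters in the table. CACGTG stood in 0 of 18, against 7.15% of all promoters. TGANTCA and GTTAAT stood in 1 of 18 each (5.56%), against 7.81% and 7.1% of all promoters. A match of letters is a description only.

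Of the 52 genes, 21 came above the floor somewhere among the 4 arrays: 8 cadherins, 7 protocadherins and 6 claudins. The H-RasV12 array had 18 of them above the floor, the myr-Akt array 11 and the c-Myc array 10, against 13 for the non-transformed array. Of the 10679 genes above the floor somewhere, these arrays had 9927, 9512 and 9492 above it, against 10216 for the non-transformed array. Only 9 of the 21 members were above it on all 4 arrays, beside 8965 of the 10679 genes. A further 4 members were above it on 2 arrays and 8 on a single array. The last 8 had to be highest where they were seen, so counts over the 21 are a description. In RNA of a whole culture, fewer cells of a type and less RNA per cell cannot be told apart. Pcdh10, with a highest signal of 102.2, lay just above the floor, and Cdh15, with 90.2, just below it. Of the 21 members, 14 differed by 2-fold or more in at least 1 of the 6 comparisons, and Cdh2, Cdh6, Cdh13, Cldn12, Pcdh1, Pcdh7 and Pcdh10 in none by the probe set used. The array labelled H-RasV12 gave the highest value for 12 of the 21 members (57.1%), against 22.6% of the 10679 genes above the floor somewhere, while the array labelled c-Myc was highest for 0 of 21, against 22.7% of those genes.

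**Figure D1:**
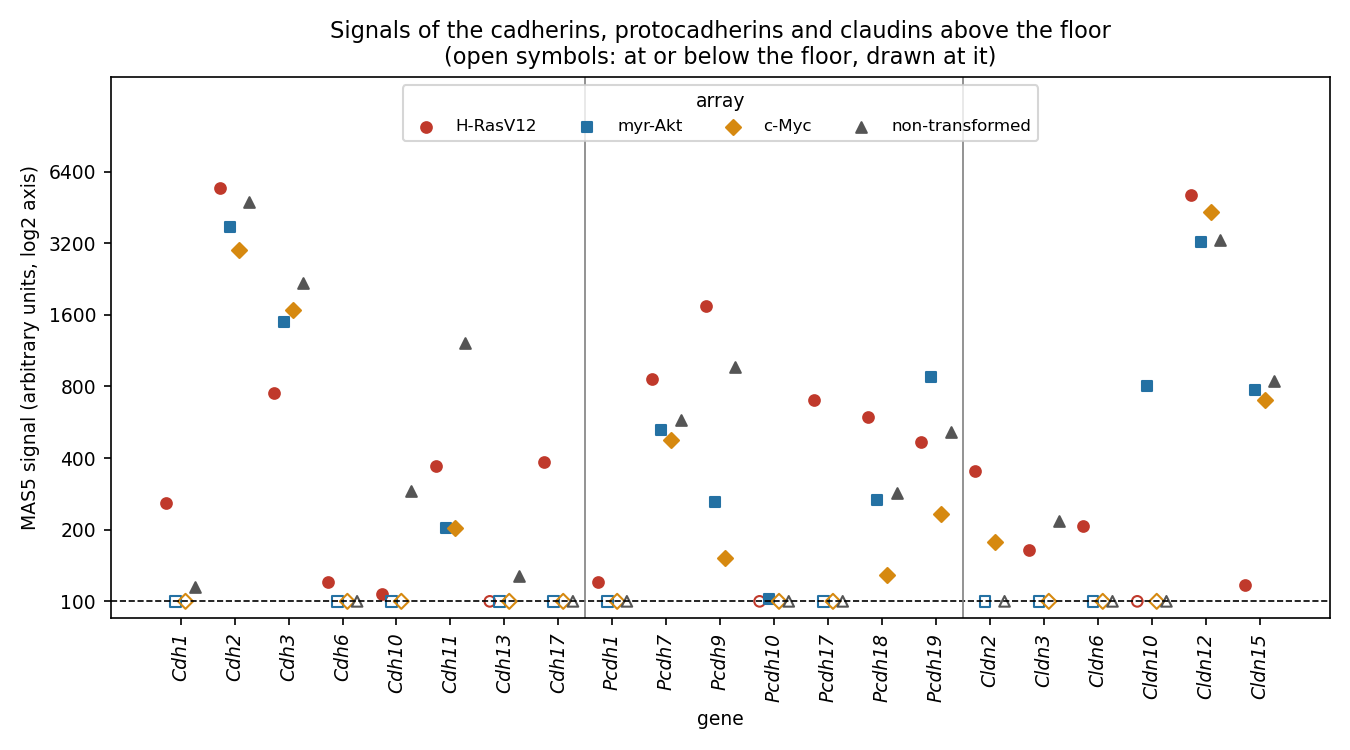
Signal of each of the 21 members above the floor, on a log2 axis in arbitrary units, with 1 symbol for each of the 4 arrays and the floor as a dashed line. Open symbols are signals at or below the floor, and grey lines part cadherins, protocadherins and claudins; Cdh17 and Pcdh17 are seen with H-RasV12 alone and Cldn10 with myr-Akt alone.

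The classical type I cadherins each had a pattern of their own. Cdh1, which encodes E-cadherin of epithelial adherens junctions, had a signal of 260.2, 50.9 and 53.5 on the H-RasV12, myr-Akt and c-Myc arrays, against 114.8 on the non-transformed array. It was thus 2.27 times higher with H-RasV12 than in non-transformed cells, at least 2.60 times higher than on either other transformed array, and below the floor on both of these. Its non-transformed signal lay close to the floor, so the bound for myr-Akt and for c-Myc was a log2 difference of only -0.20. Cdh2, which encodes N-cadherin, had signals of 5467, 3728 and 2982 on the H-RasV12, myr-Akt and c-Myc arrays, against 4768 on the non-transformed array. All 4 cultures therefore kept N-cadherin RNA well above the floor, with log2 differences of 0.20, -0.35 and -0.68 from non-transformed cells. Cdh3, which encodes P-cadherin of basal and progenitor epithelia, had signals of 752.7, 1487 and 1675 on the same 3 arrays, against 2173 on the non-transformed array. It was lowest with H-RasV12, 2.89 times lower than in non-transformed cells and 2.22 times lower than with c-Myc, so the array on which Cdh1 was highest was the lowest for Cdh3.

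Of the type II cadherins, Cdh11 and Cdh10 were lower on each of the 3 transformed arrays. Cdh11, which encodes OB-cadherin of mesenchymal cells, had signals of 372.1, 203.9 and 204.2 on the H-RasV12, myr-Akt and c-Myc arrays, against 1223 on the non-transformed array. It was 3.29 times lower with H-RasV12, 6.0 times lower with myr-Akt and 5.99 times lower with c-Myc. Cdh10, a type II cadherin known mainly from brain, had signals of 107.4, 29.4 and 9.1, against 291.7 in non-transformed cells, so it was 2.72 times lower with H-RasV12 and at least 2.92 times lower with myr-Akt and with c-Myc. These were 2 of the 288 genes (2.7% of 10679) lower in all 3 comparisons, which share the non-transformed array. Cdh6, which encodes K-cadherin of kidney, was above the floor with H-RasV12 alone, at 120.7.

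The remaining cadherins above the floor lack a catenin-binding tail. Cdh17, which encodes the liver-intestine cadherin, had a signal of 384.6 on the array labelled H-RasV12, and of 10.5, 11.4 and 2.5 on the myr-Akt, c-Myc and non-transformed arrays. It was at least 3.85 times higher with H-RasV12 than on each of the other arrays, all of which were below the floor. Cdh13, which encodes the lipid-anchored T-cadherin, was above the floor in non-transformed cells alone, at 127.9, and the bound for each transformed culture was a log2 difference of -0.36.

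Among the delta-1 protocadherins, Pcdh9 parted H-RasV12 and non-transformed cells from myr-Akt and c-Myc. Its signals were 1749, 262.6 and 151.5 on the H-RasV12, myr-Akt and c-Myc arrays, against 966.4 on the non-transformed array. It was 3.68 times lower with myr-Akt and 6.38 times lower with c-Myc than in non-transformed cells, and H-RasV12 was 6.66 times above myr-Akt and 11.5 times above c-Myc. Its other probe set above the floor had 517.2, 62.1 and 22.6 on the transformed arrays, against 410.8 on the non-transformed one. By it, too, H-RasV12 was highest, and myr-Akt and c-Myc, both below the floor, have no order between them. Pcdh7 had signals of 856.1, 527.3 and 478.7, against 576.7 in non-transformed cells, and did not differ by 2-fold by this probe set. Its 2 further probe sets were lower with c-Myc by a log2 difference of -1.09 and, bound by the floor, -1.0, where the probe set used gave -0.27. Pcdh1 was above the floor with H-RasV12 alone, at 120.6.

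Among the delta-2 protocadherins, Pcdh17 had a signal of 699.7 on the array labelled H-RasV12, and of 20.7, 1.9 and 66.7 on the myr-Akt, c-Myc and non-transformed arrays. Pcdh17 was at least 7.00 times higher with H-RasV12 than on each other array, and its further probe set gave 378.2 with H-RasV12 and values below the floor elsewhere. Pcdh18 had signals of 593.5, 266.9 and 129.6 on the H-RasV12, myr-Akt and c-Myc arrays, against 284.7 on the non-transformed array. It was 2.08 times higher with H-RasV12 and 2.20 times lower with c-Myc than in non-transformed cells, with myr-Akt at a log2 difference of -0.09. The further probe set of Pcdh18 above the floor gave 0.99 with H-RasV12 and -0.17 with c-Myc on the log2 scale, so by it neither difference reached 2-fold. Pcdh19, mutated in a form of epilepsy in humans, had signals of 468.6, 873.3 and 233.3, against 514.7 in non-transformed cells. It was 2.21 times lower with c-Myc than in non-transformed cells and 3.74 times higher with myr-Akt than with c-Myc. Its next probe set had 481.3, 795.5 and 195.7, against 569.4 in non-transformed cells, with the same order of arrays. Pcdh10 was above the floor with myr-Akt alone, at 102.2.

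Among the claudins, 3 channel-forming members differed in signal between the cultures, as did Cldn3 and Cldn6, described after them. Cldn10, whose isoforms form paracellular channels for cations or anions, had a signal of 89.6, 801.6 and 54.2 on the H-RasV12, myr-Akt and c-Myc arrays, against 47.1 on the non-transformed array. It was above the floor with myr-Akt alone, at least 8.02 times higher than on each of the other 3 arrays. Its probe set can bind more than 1 transcript, and no other single-gene probe set stood for Cldn10. Cldn15, a cation channel former known from intestine, had signals of 117.7, 770.0 and 704.3 on the H-RasV12, myr-Akt and c-Myc arrays, against 840.4 on the non-transformed array. Cldn15 was 7.14 times lower with H-RasV12 than in non-transformed cells, and 6.54 and 5.98 times lower than with myr-Akt and c-Myc. Cldn2, which forms channels for cations and water, had signals of 352.5, 96.7 and 177.6 on those 3 arrays, against 10.1 in non-transformed cells. It was at least 3.52 times higher with H-RasV12, and at least 1.78 times higher with c-Myc, than in non-transformed cells.

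Of the other claudins, Cldn6, known from embryonic epithelia, had signals of 206.9, 23.6 and 13.1 on the H-RasV12, myr-Akt and c-Myc arrays, against 97.8 on the non-transformed array. It was at least 2.07 times higher with H-RasV12 than on each other array, a bound held down by the floor for all 3. Cldn3, a sealing claudin, had signals of 163.6, 3.5 and 42.2, against 218.5 in non-transformed cells, and was at least 2.18 times lower with myr-Akt and with c-Myc. Its 2 further probe sets above the floor lay near it in non-transformed cells, at 139.4 and 105.6, and gave bounds of -0.48 and -0.08 on the log2 scale. Cldn12, an atypical claudin, had signals of 5077, 3225 and 4345, against 3292 in non-transformed cells, and stayed within 2-fold in all 6 comparisons.

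**Figure D2:**
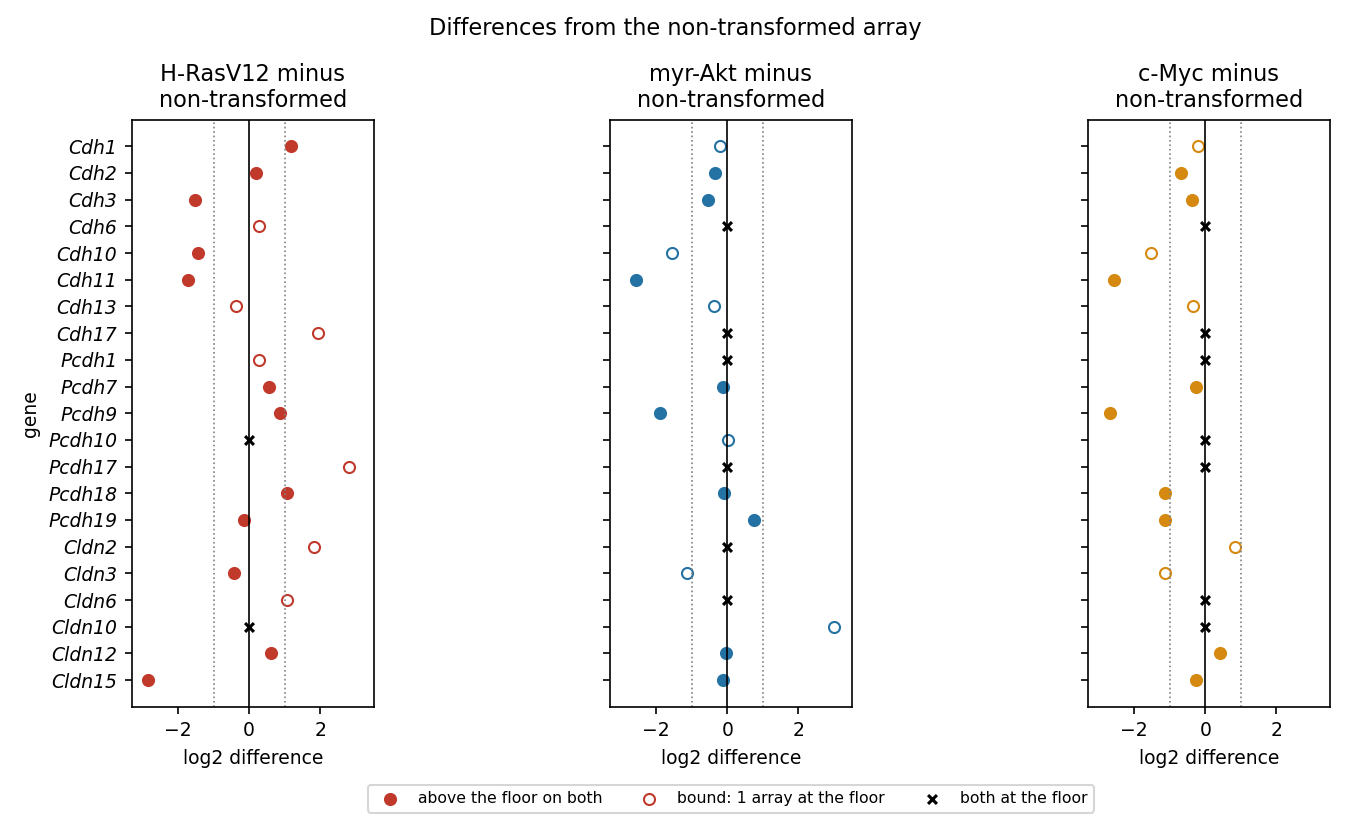
Log2 difference of each of the 21 members from the non-transformed array, in 1 panel for each transformed culture; filled circles are measured on both arrays, open circles are bounds and crosses mark genes below the floor on both. Dotted lines stand at 2-fold; Pcdh17 and Cdh17 lie to the right in the H-RasV12 panel, Cldn10 in the myr-Akt panel, and Cdh11 lies to the left in all 3.

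With H-RasV12 set against the non-transformed culture, 6 members were at least 2-fold higher, namely Cdh1, Cdh17, Cldn2, Cldn6, Pcdh17 and Pcdh18, against a background of 2.08% of the 10679 genes. Of these 6, 4 were below the floor in non-transformed cells and had to come out higher or not at all. At least 2-fold lower were 4 members, namely Cdh3, Cdh10, Cdh11 and Cldn15, against a background of 6.27%. The median log2 difference of the 21 members was 0.27, beside 0.0 over all 10679 genes. That value is the bound of Cdh6 and of Pcdh1, near the floor and seen with H-RasV12 alone. Members seen there alone could not come out lower. Over the 9 members above the floor on all 4 arrays, 1 was higher and 3 were lower, against backgrounds of 1.16% and 4.73% of 8965 such genes. The median of these 9 was 0.20, beside 0.03 over those genes.

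Markers of other cell types moved with this comparison. Of 18 liver progenitor and hepatoblast markers measured, 13 were above the floor with H-RasV12, against 8 on the non-transformed array, and their summed signal was 33602 against 15000. Of 19 mesothelial and stellate markers, 15 were above the floor, against 16, with a summed signal of 70882 against 159065. In that list, 0 genes were at least 2-fold higher with H-RasV12 and 10 were lower, against a background of 6.27% of all genes. Its largest differences with H-RasV12 were Dcn, 60.8 times lower, Lrrn4, at least 21.2 times, Gpm6a, 16.1 times, and Upk3b, 11.7 times. Of 16 endothelial markers, 3 (Eng, Esam and Flt1) were above the floor on both arrays, with a summed signal of 2145 against 930, while Cdh5 (VE-cadherin), Cldn5, Pecam1 and Kdr were below the floor on all 4 arrays. Of 8 biliary markers measured, 4 were above the floor, against 5. Of 13 neural markers, 4 were above the floor, against 6, with a summed signal of 3016 against 2072. Those 4, Nefl, Nefm, Snap25 and Tubb3, were at least 2-fold higher with H-RasV12 (log2 differences of 2.01, 1.57, 1.42 and 1.03), and Map2 was lower, seen in non-transformed cells alone. Of 16 haematopoietic markers, 3 were above the floor, against 2, and Ptprc, which marks leukocytes, was below it on all 4 arrays. The list of endothelial markers holds the members Cdh5 and Cldn5, and Esam is also a junction gene. The part of the cell mix in the member differences was not tested. Of the defining genes of liver progenitors, Afp, Alb and Hnf4a were above the floor with H-RasV12 alone, and Foxa2 on all 4 arrays, as was Krt19 of the biliary list. Alb and Hnf4a, at 167.6 and 169.1, lay near the floor, with bounds of only 0.75 and 0.76 on the log2 scale. Apoc3, Foxa3, Onecut1, Prom1 and Prox1 were below the floor on all 4 arrays. Of the 13 liver progenitor markers above the floor, 8 were at least 2-fold higher with H-RasV12, against a background of 2.08% of all genes. Afp, Alb, Foxa1, Hnf4a and Ttr were seen with H-RasV12 alone, so they could not come out lower. In this list 1 gene was lower, the fetal glypican Gpc3, against a background of 6.27%. Its signals were 311.6, 1889.5 and 3904 on the H-RasV12, myr-Akt and c-Myc arrays, against 3575.6 in non-transformed cells.

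With myr-Akt set against the non-transformed culture, 1 member was at least 2-fold higher, Cldn10, against a background of 4.9%, and 4 were lower, Cdh10, Cdh11, Cldn3 and Pcdh9, against a background of 12.7%. The median log2 difference of the 21 members was -0.09, beside -0.02 over all genes. With each array scaled to its median in place of its trimmed mean, 2 members were higher and 3 lower, Pcdh19 now being counted at 1.07. Over the 9 members above the floor on every array, 0 were higher and 2 were lower, against backgrounds of 5.04% and 9.94%. Summed signals of liver progenitor markers were 17370 against 15000, with 5 of 18 above the floor against 8, and those of mesothelial and stellate markers 98390 against 159065, with 13 of 19 above the floor against 16. Such sums rest mostly on the brightest genes. In the mesothelial and stellate list 0 genes were higher and 6 lower, namely Col1a1, Des, Msln, Pdgfra, Pdgfrb and Rgs5. Upk3b, Wt1, Lrrn4, Gpm6a and Dcn of that list stayed within 2-fold. Cd24a alone made 11635 of the sum of liver progenitor markers with myr-Akt, against 3212 in non-transformed cells, and was the 1 higher gene of that list. Its 3 lower genes were Krt18, 11.5 times, and Krt8 and Apoa1, at least 6.01 and 6.38 times. Of 16 endothelial markers, 0 were above the floor with myr-Akt, against 3, and of 13 neural markers 2, against 6, with a summed signal of 917 against 2072. Of the neural list, 1 gene was higher, Stmn2 (3.3 times), and 2 were lower, Map2 and Snap25 (at least 7.9 and 4.65 times). Tubb3 stood at a log2 difference of 0.05. In non-transformed cells Nefm and Stmn2 lay just above the floor, at 100.2 and 102.3. The part of these cell types was not tested.

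With c-Myc set against the non-transformed culture, 0 members were at least 2-fold higher, against a background of 4.42%, and 6 were lower, namely Cdh10, Cdh11, Cldn3, Pcdh9, Pcdh18 and Pcdh19, against a background of 11.3%. The median log2 difference of the 21 members was -0.25, beside 0.0 over all genes. Over the 9 members above the floor on all 4 arrays, 0 were higher and 4 were lower, against backgrounds of 4.52% and 8.59%. With median scaling, which moved the median of all genes by 0.31 on the log2 scale, 3 members were lower, and Pcdh18 and Pcdh19 stood at -0.79 each. Summed signals of liver progenitor markers were 11948 against 15000, with 6 of 18 above the floor against 8, and those of mesothelial and stellate markers 86388 against 159065, with 12 of 19 above the floor against 16. In the mesothelial and stellate list 0 genes were higher and 7 lower, namely Col1a1, Col1a2, Des, Msln, Pdgfra, Pdgfrb and Rgs5. Upk3b, Wt1, Lrrn4, Gpm6a and Dcn of that list stayed within 2-fold. Of the liver progenitor list, 1 gene was higher with c-Myc, the hepatoblast marker Dlk1, which at 1898 was 16.3 times above its non-transformed signal of 116.7, and Krt18, Krt8 and Apoa1 were lower. Of 16 endothelial markers, 0 were above the floor, against 3, and of 13 neural markers 1, against 6, with a summed signal of 365 against 2072. The part of these cell types was not tested.

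The transformed cultures were also set against each other. H-RasV12 was at least 2-fold above myr-Akt for 7 members (background 9.35%), namely Cdh1, Cdh17, Cldn2, Cldn6, Pcdh9, Pcdh17 and Pcdh18, and below it for Cldn10 and Cldn15 (background 4.38%). Of those 7 members, 5 were bounds, and with median scaling 5 members were higher and 4 lower. H-RasV12 was at least 2-fold above c-Myc for 7 members (background 8.76%), the same but for Pcdh19 in place of Cldn2, and below it for Cdh3 and Cldn15 (background 5.11%). That exchange rests on the cut-off, with Pcdh19 at 2.01 times and Cldn2 at 1.98 times. Of the 7 members above c-Myc, 4 were bounds. The array labelled myr-Akt was at least 2-fold above that labelled c-Myc for 3 members, Cldn10, Pcdh18 and Pcdh19 (background 1.53%), and below it for 0 members (background 2.01%). Of the 21 members, 9 were below the floor on both of these arrays, among them Cdh1, Cdh17 and Pcdh17.

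Further probe sets were available for some of these genes. With a signal above the floor, they stood for 3 of the 10 members counted for H-RasV12 against the non-transformed culture, Cdh3, Pcdh17 and Pcdh18. All differed in the direction of the probe set used, with only that of Pcdh17 past 2-fold. The further probe set of Cdh3 was above the floor on the non-transformed array alone (112.2), and that of Pcdh17 with H-RasV12 alone (378.2). Their directions were therefore fixed by where they were seen. In the 6 comparisons, 0 members counted at 2-fold had a further probe set above the floor that differed the opposite way, with the same limit for probe sets seen on 1 array. Among smaller differences, the probe sets of Cldn12 stood at -0.03 and 0.15 for myr-Akt against the non-transformed culture, and for H-RasV12 those of Cldn3 at -0.42 by the probe set used and at -0.16 and 0.08 by the others. The further probe sets of Cdh10, Cdh11 and Cldn2 were below the floor on all 4 arrays and show nothing either way. For Cdh2, both probe sets put H-RasV12 highest and c-Myc lowest, and the further one reached 2-fold between these arrays, at 1.04 on the log2 scale, where the probe set used gave 0.87.

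**Figure D3:**
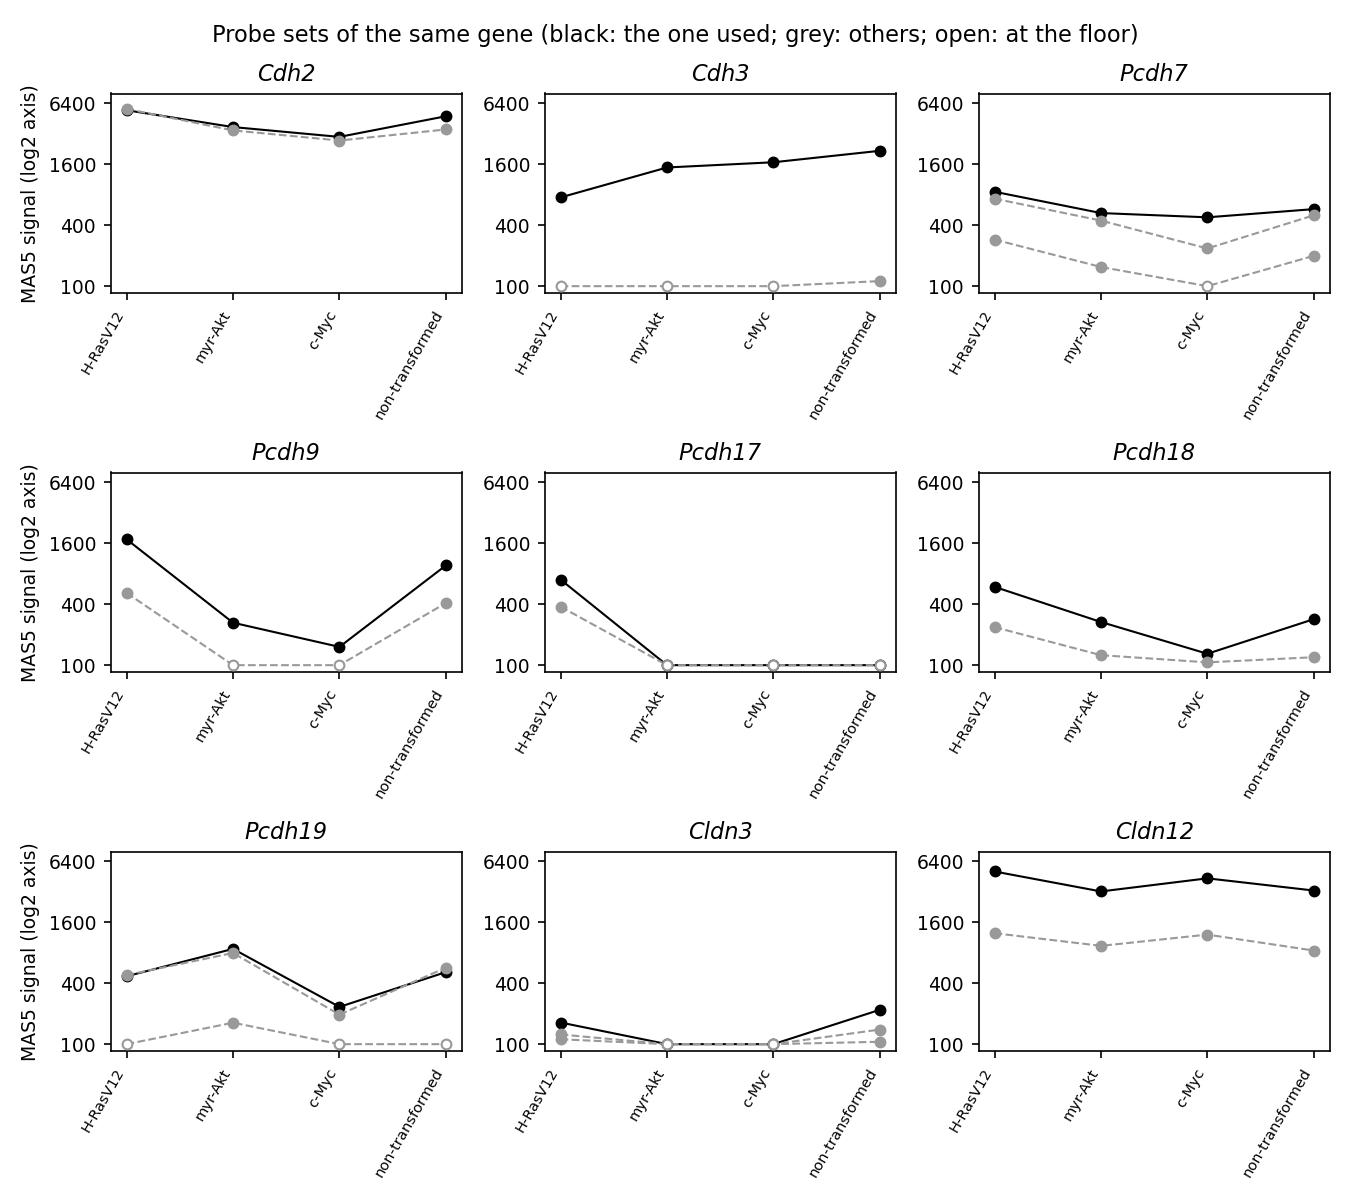
Signals of the 9 members with more than 1 probe set above the floor, on a log2 axis in arbitrary units, for each of the 4 arrays; black marks the probe set used, grey the others and open circles values at the floor, and a line joins the values of 1 probe set. The 2 brightest probe sets put the array labelled H-RasV12 highest for both Pcdh9 and Pcdh17 and the array labelled myr-Akt highest for Pcdh19, whereas the probe sets of Pcdh7 and Pcdh18 part on the array labelled c-Myc.

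Partner genes of the junctions were followed with fixed lists. Of the 10679 genes, 2.08% were at least 2-fold higher with H-RasV12 than in non-transformed cells, and 6.27% lower. These shares were 4.9% and 12.7% with myr-Akt, and 4.42% and 11.3% with c-Myc. They are the background for the counts of each list below. Of 16 catenins and cytoplasmic partners of cadherins, 13 were above the floor, and the core catenins of the adherens junction stayed within 2-fold in these 3 comparisons. Beta-catenin (Ctnnb1) had log2 differences of 0.06, 0.00 and -0.10, and alpha-catenin (Ctnna1) of 0.18, -0.09 and -0.14, for H-RasV12, myr-Akt and c-Myc against non-transformed cells. In that list 0 genes were higher in any of these comparisons, and 1, 2 and 0 were lower. Arvcf, a p120-catenin relative that binds cadherin tails, had signals of 148.4, 167.4 and 656.4, against 1136 in non-transformed cells, a log2 difference of -2.94 with H-RasV12 and -2.76 with myr-Akt. Vcl, which encodes vinculin, was lower with myr-Akt (-1.03). Jup, which encodes plakoglobin, and Ctnnd1, which encodes p120-catenin, were at -0.82 and -0.52 with myr-Akt. With median scaling, the median of the catenin list for c-Myc turned from -0.10 to 0.25, within the shift of all genes, and its counts were 1 higher and 0 lower for c-Myc and 1 and 1 for myr-Akt.

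Of 15 nectins and JAM-type adhesion molecules measured, 11 were above the floor, with 3 higher and 2 lower for H-RasV12, and 0 higher and 4 lower for both myr-Akt and c-Myc. The 3 higher genes were Clmp, Esam and Jam2, all of the immunoglobulin superfamily. Jam2 had signals of 638.2, 31.1 and 22.8, against 253.9 in non-transformed cells, a log2 difference of 1.33 with H-RasV12 and at least 2.54 times lower with myr-Akt and c-Myc. Cadm4, an adhesion molecule of the nectin-like group, was at least 7.11 times lower with H-RasV12, and at log2 differences of -1.65 and -1.39 with myr-Akt and c-Myc. F11r, which encodes JAM-A of tight junctions, was lower with H-RasV12 (-1.05), and with median scaling the split for H-RasV12 was 3 higher and 1 lower.

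Of 21 tight junction scaffold and membrane partners measured, 16 were above the floor, and 0 were at least 2-fold different with H-RasV12. Occludin (Ocln), Marveld2, Marveld3, Crb3 and Tjp3 were below the floor on all 4 arrays, while Tjp1, which encodes ZO-1, was at 0.25, -0.34 and -0.06. With myr-Akt 1 gene was higher and 1 lower, and with c-Myc 2 were higher and 2 lower. Cgn, which encodes cingulin of the tight junction plaque, had signals of 64.6, 540.9 and 777.3, against 122.1 in non-transformed cells. Amotl1, an angiomotin family scaffold, was lower with both myr-Akt and c-Myc (-1.68 each), and Pard6b, a polarity protein, was higher with c-Myc (1.31). With median scaling the splits were 2 higher and 1 lower for both myr-Akt and c-Myc.

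Of 12 desmosomal genes measured, 6 were above the floor, with 2 higher and 0 lower for H-RasV12, 1 and 2 for myr-Akt, and 0 and 3 for c-Myc. Dsp, which encodes desmoplakin, and Pkp1, which encodes plakophilin 1, were higher with H-RasV12 (1.06 and 1.03). Perp, a desmosomal membrane protein, was lower with myr-Akt and c-Myc (-3.02 and -2.89), and Dsg2, a desmosomal cadherin, was higher with myr-Akt (1.16). In the wider cadherin superfamily, 5 of 17 genes were above the floor. Celsr1, a flamingo cadherin of planar polarity, was at least 3.20 times higher with myr-Akt and at least 3.59 times higher with c-Myc, and Clstn1, a calsyntenin, was at 0.77 and 1.14, while 0 genes of this list were lower in the 3 comparisons.

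Transcription factors of epithelial-mesenchymal transition, some of which repress Cdh1, were listed together with epithelial factors. Of 20 measured, 13 were above the floor, with 0 higher and 0 lower for H-RasV12, 1 and 6 for myr-Akt, and 0 and 4 for c-Myc. The shares of all genes that were lower were 6.27%, 12.7% and 11.3% in these comparisons. Snai2 had signals of 2982, 562.6 and 364.7, against 2382 in non-transformed cells, log2 differences of 0.32, -2.08 and -2.71. Prrx1 was at 0.66 with H-RasV12, at -3.06 with myr-Akt and at least 19.3 times lower with c-Myc. Twist1 was lower with myr-Akt (-2.25) and at 0.24 and -0.40 with H-RasV12 and c-Myc. Zeb1 stayed within 2-fold, at -0.28, -0.66 and -0.27, as did Zeb2, at 0.63, -0.05 and -0.99. Snai1 was at -0.48 with H-RasV12, at least 2.29 times lower with myr-Akt and at -1.12 with c-Myc. Twist2 was at least 4.87 times lower with myr-Akt and with c-Myc. Snai1, Snai2, Prrx1 and Twist2 were thus lower with both myr-Akt and c-Myc, Twist1 with myr-Akt alone, and Zeb1 and Zeb2 with neither. Cdh1 was not counted as lower on these arrays, where its bound was a log2 difference of only -0.2. Any link between these factors and Cdh1 was not tested. With median scaling the splits were 1 higher and 4 lower for myr-Akt and 0 and 3 for c-Myc, and quantile normalization also left 3 lower for c-Myc. Of the epithelial factors, Grhl1 was at least 2.85 times higher with myr-Akt, and Klf5, named after its values were seen because it is the last of the 6 lower genes, was 2.16 times lower. The epithelial factors Grhl2, Ovol1, Ovol2, Ehf and Elf3 were below the floor on all 4 arrays.

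Of 13 genes of cadherin shedding and turnover measured, 11 were above the floor, with 0 higher in any of the 3 comparisons and 2, 4 and 2 lower. Mmp14, a membrane metalloprotease, was lower in all 3 (-1.23, -1.97 and -2.02). Adam10, the main sheddase of E-cadherin and N-cadherin, stayed within 2-fold, and Adam9 was lower with myr-Akt (-1.56). With median scaling the splits were 1 higher and 2 lower for myr-Akt, and 1 and 1 for c-Myc.

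**Figure D4:**
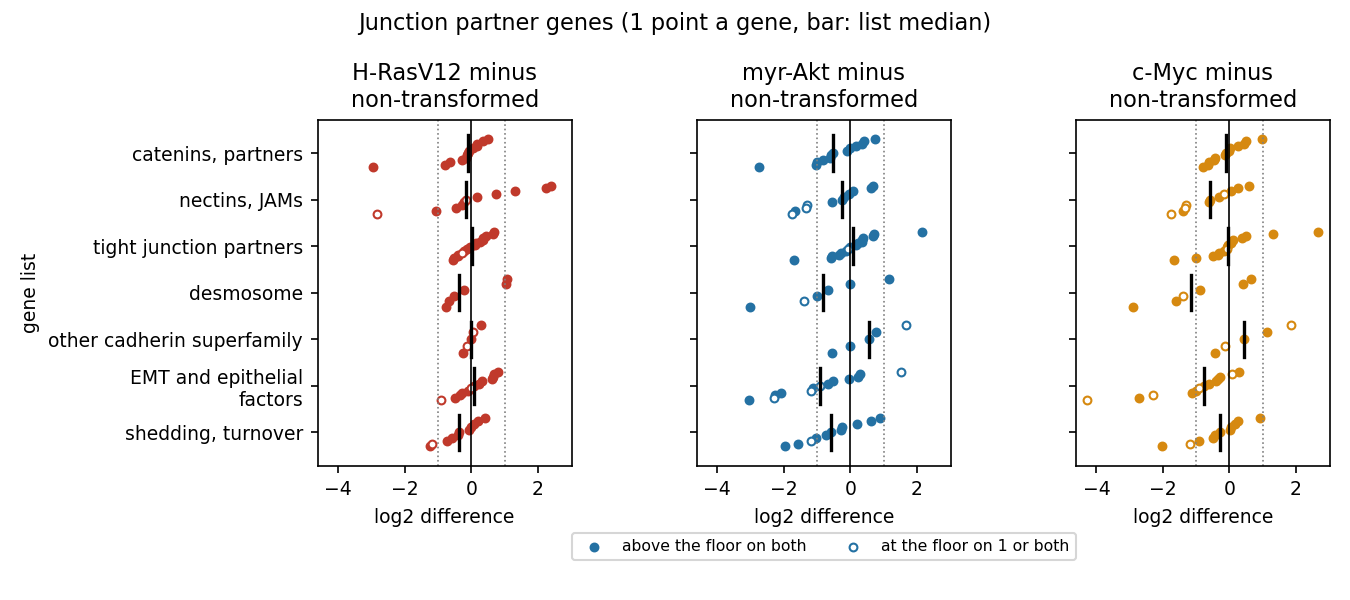
Log2 differences from the non-transformed array for the genes of 7 junction lists, 1 point for each gene that any array put above the floor, with a bar at each list's median; open points are below the floor on 1 or both arrays and dotted lines stand at 2-fold. The medians for the epithelial-mesenchymal list are 0.08 with H-RasV12, -0.92 with myr-Akt and -0.77 with c-Myc.

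The other 31 members were below the floor on all 4 arrays. They include 13 cadherins, 4 protocadherins and 14 claudins, among them Cdh5 of endothelium, Cdh15 of muscle, Cdh16 of kidney, Cldn1, which seals tight junctions in liver and skin, and Cldn4 and Cldn7 of simple epithelia. Cldn4 had signals of 89.4, 3.0 and 5.1 on the H-RasV12, myr-Akt and c-Myc arrays, against 35.5 in non-transformed cells. Pcdh20 had signals of 75.6, 13.2 and 17.9 on those arrays, against 35.3 in non-transformed cells. Such values have no order here.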

How the data were processed

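Total RNA of 4 cultures was measured on 1 single-colour Affymetrix array each, from 1 µg of RNA per the labels. The authors deposited a linear signal intensity for each probe set, computed by MAS5 according to the submitters' processing notes. No source used here gives the version, detection calls, background settings or filters. The 2% trimmed mean was 500.003 on all 4 arrays, so the authors had scaled them. Of the 45101 probe sets 64 are controls, which were not used for genes; 34945 had 1 symbol in the platform annotation, 932 several and 9160 none, and only the first kind was used. All 52 members matched the RefSeq gene table of GRCm38.p6 by Entrez identifier.

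Each array was rescaled to the mean of the 4 trimmed means, values under 20% of this mean were raised to that floor, and the log2 was computed with Python 3.11.15, pandas 2.3.3, numpy 2.4.6 and scipy 1.17.1. Counts of 2-fold differences ran over the 10679 genes above the floor on at least 1 array, in 6 comparisons. The counting was tested on simulated data. With 1 array a culture there is no test, and precision is limited by the number of arrays. No label gives a batch, so batch and culture cannot be told apart. Named were all members above the floor, and from each fixed list at most 6 genes with the largest differences, the core junction genes and defining markers of other cell types. The members and lists were chosen with earlier results of these data known. Promoters were searched for 4 motifs, of which CACCTG was planned and 3 were added later. Planned counts of protein motifs were not made, and protein sequences were not used here.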

Additional observations from a re-analysis of the deposited data

Results flagged for a closer look

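Pcdh18 was 2-fold or more higher on the array labelled H-RasV12 than in non-transformed cells (log2 difference 1.06) and 2-fold or more lower on the array labelled c-Myc (log2 difference -1.14), so the transformed cultures moved opposite ways from the same control array. The difference between them was not tested, since each culture has 1 array. Of 10679 genes, 71 (0.665%) were higher with H-RasV12 and lower with c-Myc in this way, and Pcdh18 was the 1 member among them. The next probe set of Pcdh18 gave 0.99 and -0.17.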

How the results depend on the processing

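The 42 differences of 2-fold or more between arrays were recomputed under 9 other settings, which gave 358 values. Of these, 283 kept 2-fold in the same direction, 75 fell under 2-fold and 0 turned round. Part of the 283 could not have fallen. Lowering or removing the floor can only keep or widen a difference counted at 2-fold. The mean over probe sets repeats the value of a gene with 1 probe set. Leaving out probe sets that can bind several transcripts changes no gene whose probe set stays. Of the 42, 15 kept 2-fold under every setting that gave a value. Against non-transformed cells these were Pcdh17 and Cldn15 with H-RasV12, Cldn10 with myr-Akt and Pcdh9 with myr-Akt and c-Myc. Between transformed cultures they were Cldn15, Pcdh9 and Pcdh17 for H-RasV12 against both others, Cldn10 for myr-Akt against both others, Pcdh18 for H-RasV12 against c-Myc, and Pcdh19 for myr-Akt against c-Myc. No paired analysis was possible because each culture has 1 array, and no array could be left out. Of 117 counts recomputed, 43 moved by over 1.5 times. In what follows, counts are of members at least 2-fold different. With a floor at 10%, 2 were higher for myr-Akt and 1 for c-Myc against non-transformed cells, and H-RasV12 was above both myr-Akt and c-Myc for 11. With a floor at 40%, 2 were higher for H-RasV12, 2 were lower for myr-Akt and 3 for c-Myc, and H-RasV12 was above myr-Akt for 3 and above c-Myc for 4. Without a floor all 52 genes counted, and by construction signals without order entered: 13 were then higher and 17 lower for H-RasV12, 10 and 20 for myr-Akt and 4 and 25 for c-Myc against non-transformed cells, 18 and 16 for H-RasV12 against myr-Akt, 21 and 11 for H-RasV12 against c-Myc, and 18 and 7 for myr-Akt against c-Myc. With log2(signal + 100), 3 were higher for H-RasV12 and 1 (Cldn2) for c-Myc. With the mean over probe sets, 1 was lower for H-RasV12, 2 for myr-Akt and 2 for c-Myc against non-transformed cells, and 1 for H-RasV12 against c-Myc. The next brightest probe set left 9 members above the floor, with 1 higher and 0 lower for H-RasV12, 0 and 1 for myr-Akt and 3 lower for c-Myc against non-transformed cells, 2 and 0 for H-RasV12 against myr-Akt, 0 lower for H-RasV12 against c-Myc and 1 higher for myr-Akt against c-Myc. Without probe sets that can bind several transcripts, which removes Cldn10, 0 were higher for myr-Akt and 1 was lower for H-RasV12 against myr-Akt. With median scaling, 2 were higher for myr-Akt, 3 were lower for c-Myc, and 4 were lower for H-RasV12 against myr-Akt. That scaling moved the median of all 10607 genes by 0.25 for myr-Akt and 0.31 for c-Myc against non-transformed cells, where 1281 genes were then higher and 942 lower, and 1382 higher and 818 lower; as reported, 523 were higher and 1353 lower, and 472 higher and 1211 lower. Cldn15 then stood at 0.18 with myr-Akt and 0.09 with c-Myc, both below that shift, where it was at -0.13 and -0.25 as reported. Cldn6, Cdh1 and Cldn3 lay near the floor, and at 40% they gave 0.38 for Cdh1 and 0.05 for Cldn6 with H-RasV12 and -0.13 for Cldn3 with myr-Akt. Background correction could not be redone from summarised signals, and the signal over background limits what can be said of the 31 members below the floor.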

Other observations

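The clustered protocadherins, whose names carry a letter after Pcdh and which are not among the 52 genes, were nearly all dim in these cultures. Of 23 with a single-gene probe set, 1 was above the floor on at least 1 array, Pcdhgc4, with signals of 109.6, 110.7 and 152.8 on the H-RasV12, myr-Akt and c-Myc arrays, against 80.0 on the non-transformed array. Of 6 probe sets shared by several clustered protocadherins, 0 were above the floor.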
